A study of Mus musculus with 36 samples.

Results

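Overlap regions of K27me3 and K4me3 are stretches of the genome where a K27me3 peak and a K4me3 peak of the same pancreas shared at least 200 bp. Peaks on the 19 autosomes were intersected within each of 12 mice, and the intersections of all mice were merged by overlap. The members, 1119 of the 2832 merged regions, were those found in at least 2 mice. Members were therefore chosen from the peak calls themselves, so presence, shared length and the number of mice with a region are given as descriptions and carry no test.

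The data were ChIP-Seq peak lists for each mark from whole pancreas of 12 mice, taken 22 days after tamoxifen gavage at 2 to 4 months of age. Every mouse received tamoxifen. The 3 control mice (labelled Wildtype, here WT) were C57BL/6 or carried Mist1creERT alone. The 3 Ezh2ΔSET mice (EZ, Mist1creERT/+EZH2[delta]SET) lost the exons of the catalytic SET domain of EZH2 after recombination. The other 6 mice belong to 2 further genotypes that are not compared here. They enter because the rule counts all 12 mice, and they are numbered O1 to O6. The authors describe the Mist1 Cre driver as acinar-specific, so the ducts, islets, vessels and immune cells of Ezh2ΔSET pancreas were not targeted. EZH2 in those cells was not measured here. Since creERT sits in the Mist1 gene itself, Ezh2ΔSET mice carried 1 altered Mist1 allele, which control mice without creERT did not. The 3 mice of a genotype were labelled as biological replicates. The lists hold positions without heights or read counts, so the depth behind a peak is unknown.

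K27me3 is written by EZH2 in Polycomb repressive complex 2 (PRC2) and marks silent genes, whereas K4me3 marks gene starts that are active or ready for activation. Regions with both marks are called primed or bivalent. They were first described at CpG-rich starts of developmental regulators in embryonic stem cells, and adult tissues retain such regions. In bulk tissue, both marks on the same chromatin and each mark in different cells cannot be told apart.

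The sequence of 4 members is shown because members were found mostly in CpG-rich DNA and these 4 had both marks in all 12 mice. Each is 300 bases of the forward strand of GRCm38 (mm10), around the bases that the largest number of mice shared, with CG dinucleotides in capitals. The stretch nearest Pcdh7, at chr5:57714442-57714741, lies in an intron of 4932441J04Rik and holds 10 CG. The stretches at chr2:10375210-10375509 and chr7:137312547-137312846 lie in introns of their own genes, Sfmbt2 and Ebf3, with 16 and 5 CG. The stretch nearest Gm43517, at chr12:49400824-49401123, lies in an intron of 3110039M20Rik and holds 9 CG. All 12 mice shared bases in the Sfmbt2 and Gm43517 stretches, and at most 11 mice shared the same base at Pcdh7 and Ebf3. The window at Osr2, also in 12 mice, reached into an exon and is not printed.
Pcdh7: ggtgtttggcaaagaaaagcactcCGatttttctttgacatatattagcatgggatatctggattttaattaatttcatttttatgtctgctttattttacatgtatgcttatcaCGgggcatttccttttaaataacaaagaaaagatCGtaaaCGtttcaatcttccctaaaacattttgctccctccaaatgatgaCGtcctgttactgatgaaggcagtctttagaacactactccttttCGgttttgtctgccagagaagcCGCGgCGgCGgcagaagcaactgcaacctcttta
Sfmbt2: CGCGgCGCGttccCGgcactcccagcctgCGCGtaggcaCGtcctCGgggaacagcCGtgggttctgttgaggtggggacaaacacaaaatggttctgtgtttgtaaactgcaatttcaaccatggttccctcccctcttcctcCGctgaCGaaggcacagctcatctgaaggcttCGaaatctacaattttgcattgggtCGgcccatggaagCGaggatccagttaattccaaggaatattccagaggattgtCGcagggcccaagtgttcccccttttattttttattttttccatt
Ebf3: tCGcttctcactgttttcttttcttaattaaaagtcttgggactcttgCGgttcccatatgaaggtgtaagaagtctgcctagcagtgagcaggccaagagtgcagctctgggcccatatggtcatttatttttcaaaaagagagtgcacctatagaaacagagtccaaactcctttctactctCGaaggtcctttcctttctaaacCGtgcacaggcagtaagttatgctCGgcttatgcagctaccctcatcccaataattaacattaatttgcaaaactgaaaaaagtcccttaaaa
Gm43517: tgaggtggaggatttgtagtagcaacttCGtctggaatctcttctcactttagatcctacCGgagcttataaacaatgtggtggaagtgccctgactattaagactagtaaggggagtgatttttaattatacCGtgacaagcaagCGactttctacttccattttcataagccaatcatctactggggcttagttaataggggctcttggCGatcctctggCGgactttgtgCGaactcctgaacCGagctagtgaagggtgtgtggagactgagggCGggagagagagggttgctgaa

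Pcdh7 encodes a protocadherin of cell adhesion, Sfmbt2 a Polycomb group protein, and Ebf3 a factor of neuronal differentiation. Across all members, the 300 bp at the centre of the shared part held a median of 17 CG, and 80.0% of members held at least 10. The 27737 K4me3 regions that were found in at least 2 mice and held no member had a median of 7 CG in their central 300 bp, and 39.5% held at least 10. Of the stretches shown, Sfmbt2 thus lies close to the median of the members, and Pcdh7, Gm43517 and Ebf3 lie below their lower quartile of 11 CG.

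The number of overlap regions differed widely among mice. The control mice had 140, 2011 and 353 overlap regions in WT1, WT2 and WT3. Ezh2ΔSET mice had 321, 396 and 433, and the other 6 mice had 1014, 352, 502, 490, 431 and 284 in O1 to O6. WT2 and O1 stood above the other 10 mice and WT1 below them, and Ezh2ΔSET mice lay within the range of the controls. As a share of each mouse's K4me3 peaks, 11.9% overlapped K27me3 in WT2 and 4.48% in O1, compared with 0.579% in WT1 and 1.21% to 2.29% in the other 9 mice. WT2 also had the fewest peaks of either mark on the autosomes, with 16912 for K4me3 and 13810 for K27me3 after peaks of one list that overlapped had been merged. The ranges over the other 11 mice were 21263 to 25433 and 16181 to 24797. The part of this difference in the overlaps of WT2 was not tested.

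**Figure D1:**
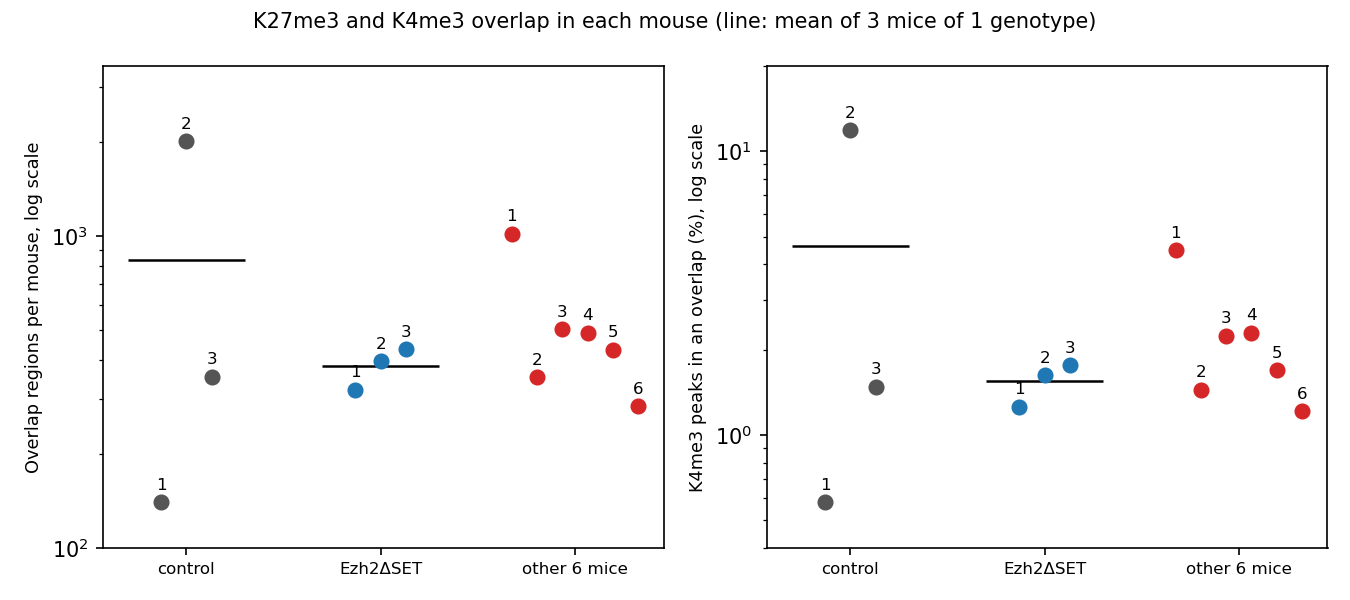
Overlap regions per mouse (left) and the percent of K4me3 peaks that overlapped K27me3 (right), both on log axes, for control mice, Ezh2ΔSET mice and the other 6 mice. Points are mice with their number, and lines are means of the 3 mice of 1 genotype. WT2 (2011 regions, 11.9%) and O1 (1014 regions, 4.48%) lie above the other 10.

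The mean number of overlap regions was 835 ± 1024 (SD, n = 3) in control and 383 ± 57.1 (SD, n = 3) in Ezh2ΔSET tissue. The difference of Ezh2ΔSET from control was -451 regions (exact two-sided permutation p = 0.9, n = 3 against 3). Without WT2 it was 137 regions, with the opposite sign (exact permutation p = 0.3). As a share of K4me3 peaks, the means were 4.64% ± 6.27 and 1.55% ± 0.261 (SD, n = 3 each), a difference of -3.09 percentage points (exact permutation p = 0.9). The adjusted p was 0.9 for both of these 2 comparisons. No difference in the amount of overlap was detectable beyond the spread between mice, and 3 against 3 mice cannot give a p below 0.1.

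On chromosome X, which lies outside the rule, 8 mice had 3330 to 5090 K27me3 peaks, whereas EZ2, O1, O2 and O3 had 10 to 33. The inactive X of female cells is known to carry broad K27me3, and the labels give no sex. EZ2 differed in this from EZ1 and EZ3, whose autosomal overlap regions (321 and 433) lay on either side of its own (396).

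Of the 2832 merged regions, 1713 were found in 1 mouse and so fell just outside the rule. WT2 alone supplied 1302 of them (76.0%) and O1 alone 171. Just inside it, 445 members were found in 2 mice, and 264 of these (59.3%) were in WT2 and O1 and in no other mouse. The median shared length was 949 bp for regions in 1 mouse and 807 bp for members in 2 mice. Toward the other end, 156 members were in 3 mice, 313 in 4 to 7 mice and 205 in 8 to 12 mice, of which 47 were in 11 and 14 in all 12. Without WT2, 825 regions met the rule of at least 2 mice, and without both WT2 and O1, 687 did.

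**Figure D2:**
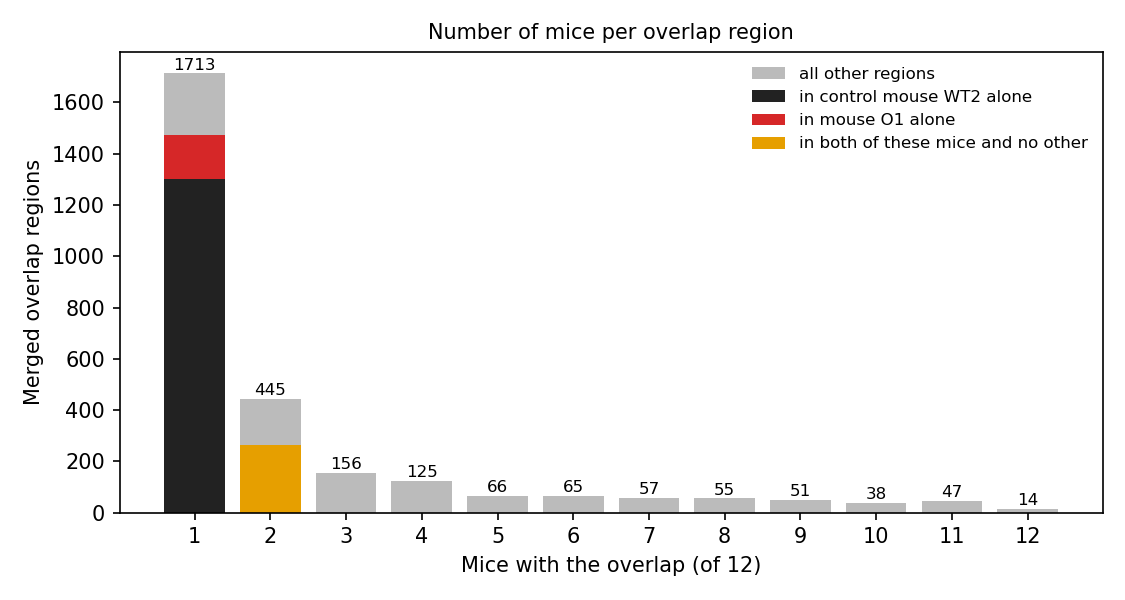
Number of merged overlap regions (vertical axis) by the number of mice that had them (horizontal axis). Of the 1713 regions in 1 mouse, 1302 were in WT2 (black) and 171 in O1 (red), and 264 of the 445 members in 2 mice were in this pair (orange).

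Each mouse held between 122 members (WT1) and 831 members (O1). The counts were 122, 702 and 320 in control, 301, 364 and 395 in Ezh2ΔSET, and 831, 332, 458, 449, 400 and 267 in the other 6 mice. Members were thus fewest in WT1 and most numerous in O1 and WT2, and the Ezh2ΔSET mice lay between the controls. When members were built again from the other 11 mice, those in at least 6 of them were found again in 22.8% of cases in WT1, in 57.9% in WT2 and in 61.2% to 81.9% in each of the other 10 mice. K4me3 regions with an overlap in fewer than 2 of the other 11 mice carried one in 5.39% of cases in WT2, in 1.62% in O1 and in 0.0541% to 0.263% in the other 10 mice. WT2 therefore had many overlaps that few or no other mice had, yet lacked some that most mice shared.

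At least 1 mouse of every genotype had the overlap at 355 members (31.7%), and at 253 of 825 (30.7%) when WT2 was left out. All 3 mice had it at 33 members in control and at 151 in Ezh2ΔSET tissue. WT1 held 122 members in all, which caps the control count. Without WT2, both remaining control mice had the overlap at 75 members. There were 213 members in no control mouse and 540 in no Ezh2ΔSET mouse. Without WT2, which leaves 2 control mice against 3 Ezh2ΔSET mice, these counts among the 825 regions were 462 and 252, so their order turned with WT2 alone. Fewer control mice raise the first count by construction. Without WT2 and O1 they were 334 and 134 among 687 regions.

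Where a member lacked the overlap in a mouse, 1 of the marks was usually still called. Over the 8487 pairs of a member and a mouse without the overlap, 65.2% had K4me3 alone, 22.5% had K27me3 alone and 8.17% had neither. The remaining 350 pairs had both marks in the region but shared under 200 bp. K4me3 was called in all 12 mice at 540 members (48.3%) and K27me3 at 120 (10.7%). For the 205 members in 8 to 12 mice, the mark present at absences differed by mouse. In WT1, 121 of its 145 absences had K4me3 alone, in WT2, 65 of 67 had K27me3 alone, and in O4, 31 of 34 had K27me3 alone. Absence of an overlap at these members thus came with a missing K27me3 peak in WT1 and with a missing K4me3 peak in WT2 and O4.

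The position of members was compared with the starts of protein-coding genes. Of 1119 members, 775 (69.3%, 95% Wilson interval 66.5% to 71.9%, counting error only) were within 3 kb of such a start, and 596 contained one. The share was 76.2% for the regions in 1 mouse, which the rule left out, and 62.4% for the members in 8 to 12 mice. It was 76.5% for the members in WT2 and O1 only, and 65.6% for those in at least 2 of the other 10 mice. Of the 775, 539 (69.5%) were centred on the transcribed side, a share not computed for other K4me3 regions. The other 344 members had their nearest coding start at a median of 26.4 kb, and 138 of them (40.1%) were within 3 kb of another annotated start, such as that of a noncoding RNA. The median length of a member was 1142 bp. In each mouse, 68.6% to 85.3% of overlap regions were K4me3 peaks that lay wholly within a K27me3 peak.

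K4me3 peaks that overlapped K27me3 were narrower than the other K4me3 peaks of the same mouse, with medians of 766 to 1255 bp against 1379 to 1779 bp. K27me3 peaks in an overlap were wider than the others, with medians of 8492 to 13227 bp against 6431 to 7640 bp. Width enters the chance of sharing 200 bp, so these widths are descriptions.

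Position and base composition did not enter the rule, and each mouse gave its own comparison. Overlapping K4me3 peaks were more often within 3 kb of a coding gene start than the other K4me3 peaks of the same mouse, by 9.11 percentage points ± 2.92 (SD, n = 12; higher in 12 of 12 mice; exact sign-flip permutation p = 0.000488, two-sided, the smallest that 12 mice allow). With a window of 1 kb the difference was 3.66 points, and with at least 1000 bp shared it was 16.7 points. The shares were 57.9% against 54.8% in WT1, the smallest difference, and 67.8% against 53.9% in EZ3, the largest. The median CpG observed/expected ratio, which is 1 where CG is as frequent as its bases predict, was higher in overlapping peaks by 0.215 ± 0.0318 (SD, n = 12; higher in 12 of 12 mice; exact sign-flip permutation p = 0.000488). It ranged from 0.673 to 0.707 in overlapping peaks and from 0.440 to 0.546 in the others, so the ranges did not meet. Among peaks within 3 kb of a coding start alone, the difference was 0.122 (exact sign-flip permutation p = 0.000488, n = 12), smaller than over all peaks.

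**Figure D3:**
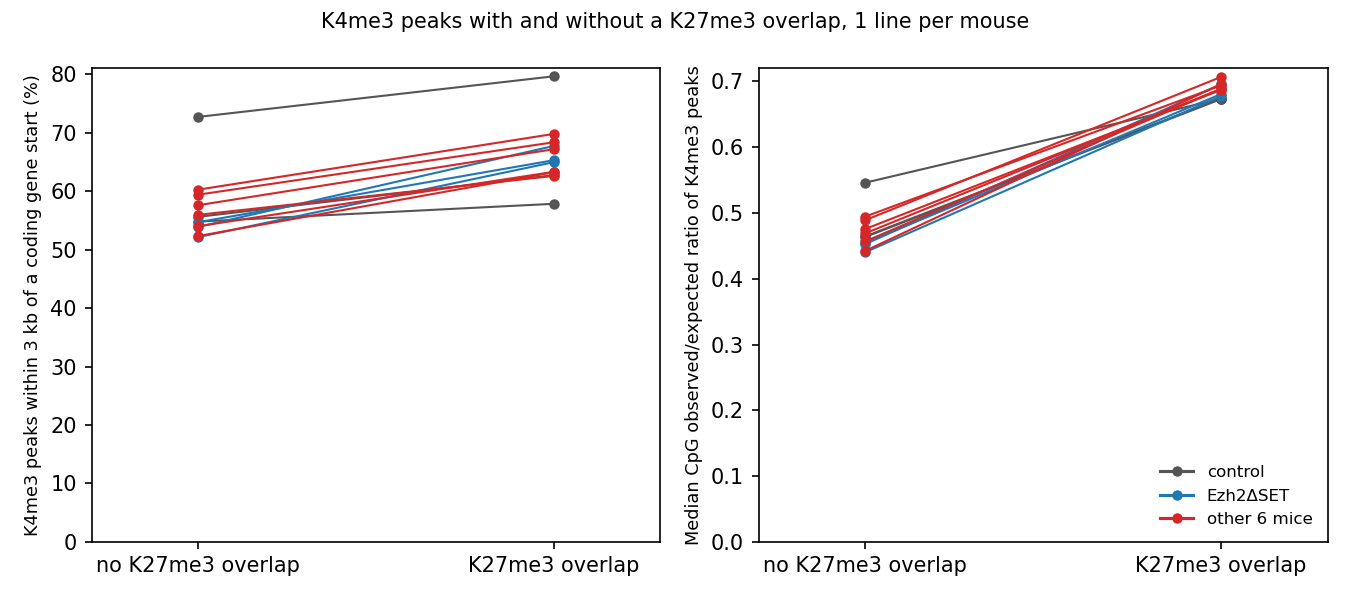
Percent of K4me3 peaks within 3 kb of a coding gene start (left) and their median CpG observed/expected ratio (right), for peaks without and with a K27me3 overlap. Each line is 1 mouse, coloured as control, Ezh2ΔSET or 1 of the other 6 mice. Both measures are higher with the overlap in 12 of 12 mice.

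Of the 14 members in all 12 mice, 11 were within 3 kb of a coding start. At Pcdh7, the shared length was 843, 4558 and 757 bp in control, 1276, 2336 and 1595 bp in Ezh2ΔSET, and 2961, 940, 1495, 1027, 1679 and 1868 bp in the other 6 mice. At Osr2, a zinc finger factor of limb and palate development, it was 1034, 2808 and 2318 bp, 1011, 2310 and 975 bp, and 2519, 1469, 1569, 2147, 1360 and 1319 bp in the same order. Control and Ezh2ΔSET mice overlapped at both, and WT2 had the longest shared length at each.

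At Sfmbt2 the shared length was 1160, 3050 and 996 bp in control and 1450, 627 and 2240 bp in Ezh2ΔSET mice, and ran from 326 bp (O2) to 3301 bp (O1) in the others. At Ebf3 it was 1248, 3716 and 1158 bp in control and 1111, 2851 and 1416 bp in Ezh2ΔSET mice, and 620 to 2993 bp in the others. Control and Ezh2ΔSET mice thus overlapped at both. Shorter and more even regions were found at Itga8, which encodes an integrin needed in kidney development, with 753 to 925 bp over the 12 mice. At Tbx15, a T-box factor, the range was 626 to 1201 bp, and at Zic4, a zinc finger factor of brain development, 501 to 1027 bp. These 3 members varied less in shared length than those at Pcdh7 and Ebf3.

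Further members in 12 mice were at Rtn1, a reticulon of neuronal endoplasmic reticulum, with 640 to 1264 bp, and at Prdm8, a PR domain factor of neurons, with 501 to 2225 bp. Another 3 were far from their nearest coding start: 15.5 kb from Gm43517, 42.6 kb from Gm20767 and 77.9 kb from Tbca. The region near Gm20767 has 2 copies in the reference genome at 95% identity or more over at least 50% of its length. Only 28 members (2.50%) had more than 1 copy by this measure, and 5 of these were within 3 kb of a coding start.

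**Figure D4:**
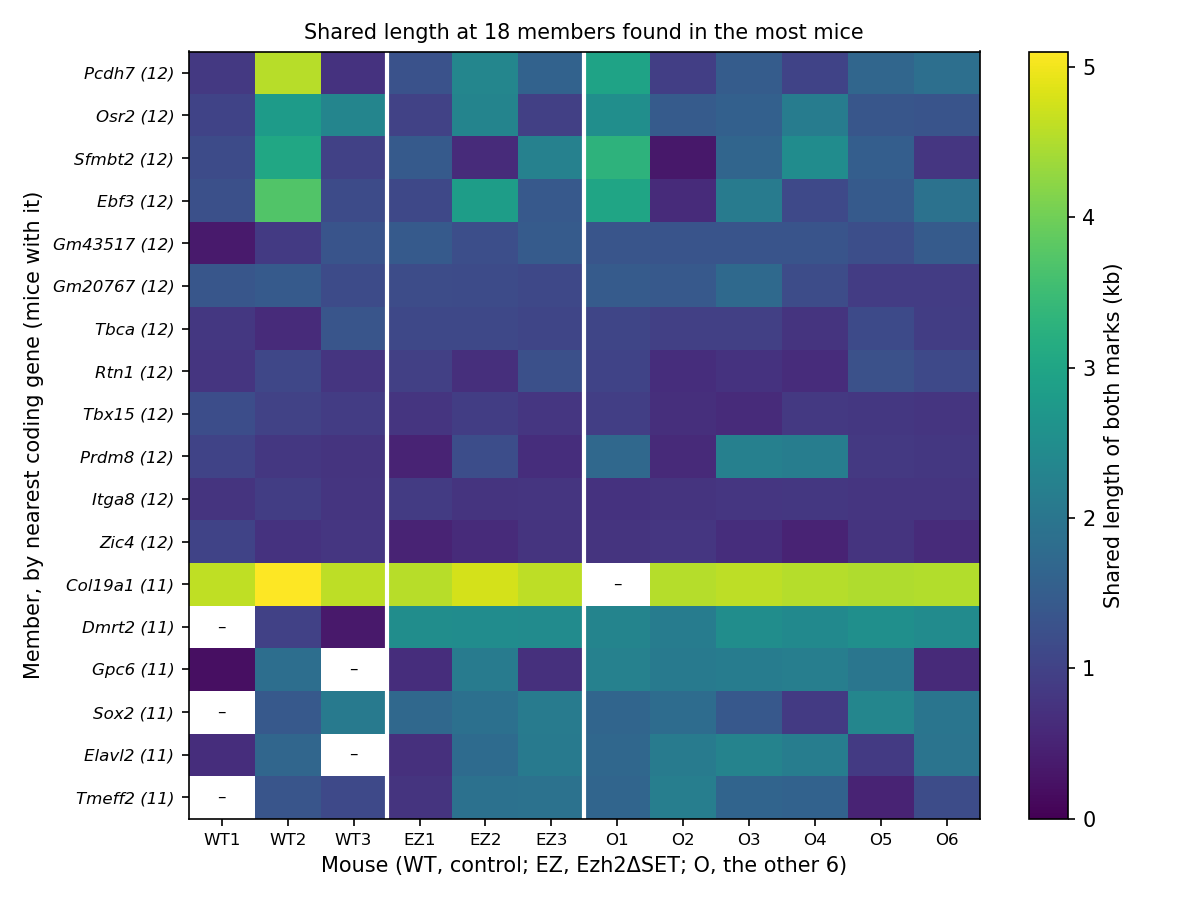
Length shared by both marks (kb, colour) in each mouse (columns) at 18 of the 20 members found in the most mice (rows, by nearest coding gene, number of mice in brackets). White cells with a dash had no overlap of at least 200 bp. Dmrt2 is 0 to 984 bp in control and 2143 to 2533 bp in the other 9 mice.

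Of the 47 members in 11 mice, WT1 was the mouse without the overlap at 29 and WT2 at 8. At Dmrt2, which encodes a doublesex-related factor of somite and muscle development, the shared length was 0, 984 and 345 bp in control mice. It was 2507, 2473 and 2463 bp in Ezh2ΔSET, and 2305, 2143, 2493, 2423, 2533 and 2461 bp in the other 6 mice. All 9 mice that were not controls lay above all 3 controls there. Both marks were called in 12 of 12 mice, so in WT1 they shared under 200 bp. Dmrt2 was singled out after its values were seen among the 20 members of this rank, and shared length was part of the rule, so the difference carries no test.

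The others of this rank did not separate the controls from the rest. At Gpc6, a glypican, the shared length was 209, 1848 and 0 bp in control mice and 604 to 2252 bp in the other 9. At Elavl2, an RNA-binding protein of neurons, it was 672, 1682 and 0 bp in control and 709 to 2277 bp in the others. At Tmeff2, a transmembrane protein, it was 0, 1348 and 1130 bp in control and 500 to 2190 bp in the others, and at the region 12.9 kb from Sox2, a stem cell factor, 0, 1432 and 2113 bp in control and 864 to 2340 bp in the others. WT2 lay within the range of the mice that were not controls at all 4.

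A few members lay in repeated sequence. The region 54724 bp from Nts had 64 copies in the genome by the same measure and shared 501 bp in each of 11 mice, those near Ccdc7a (9 mice) and Vmn2r25 (4 mice) had 54 and 69 copies, and all 3 were named after their values were seen. The region 23.9 kb from Col19a1, at chr1:24611364-24616467, shared 4502 to 5104 bp in 11 mice and 0 bp in O1. It matches the mitochondrial genome, and was the only member to do so, with a CpG observed/expected ratio of 0.513 and 36.7% G or C. Reads of the mitochondrial genome and of this nuclear copy cannot be told apart here.

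**Figure D5:**
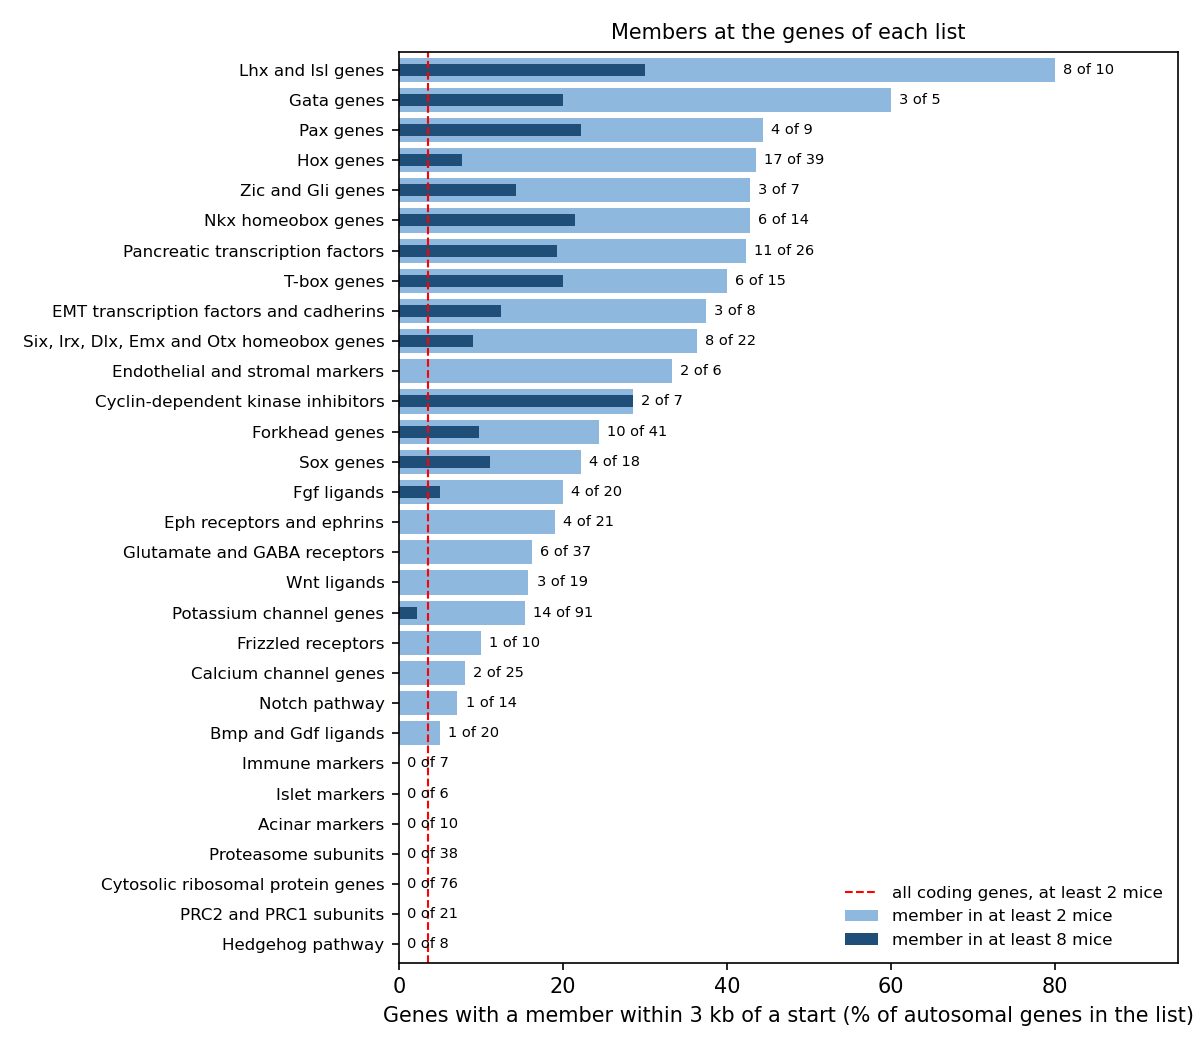
Percent of the autosomal genes of each list with a member within 3 kb of a start (light bars, at least 2 mice, and dark bars, at least 8 mice), with counts beside the bars. The dashed line is the 3.60% of all 20698 coding genes. Every list with a member lies to its right, the lowest being Bmp and Gdf ligands. Ribosomal protein, proteasome, PRC and Hedgehog pathway genes and acinar, islet and immune markers are at 0. A short list can be at 0 at the share of all genes.

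Several families of transcription factors had a member at a large share of their genes. Over all 20698 autosomal coding genes, 746 (3.60%) had a member within 3 kb of a start, or 5.44% of those with a K4me3 region there, and 128 (0.618%) had one in at least 8 mice. Without WT2 and O1, 436 genes had one in at least 2 mice. Among Hox genes, which set position along the body axis, 17 of 39 had a member, and 13 still had one in at least 2 mice without WT2 and O1. The count was 8 of 10 for Lhx and Isl genes, 4 of 9 for Pax genes, 6 of 14 for Nkx genes, 6 of 15 for T-box genes, 3 of 5 for Gata genes and 10 of 41 for forkhead genes. All of these shares lay above that of all genes, and 18 of 39 Hox genes had a K4me3 region at all. Lists were compared by counts alone.

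The Hox clusters held several members each, and their presence varied among mice. The Hoxa7 region was in 11 mice with 501 to 1262 bp and absent in WT1, and the Hoxd12 region in 11 mice with 501 to 942 bp and absent in O6. The Hoxd9 region was in 9 mice. Summed over the Hoxb cluster, with 10 members, the shared length ran from 627 bp in O6 to 8229 bp in WT2. In WT3 it was 7512 bp and in O1 4603 bp, whereas the other 9 mice had at most 3186 bp. Over the 6 members of the Hoxa cluster it was 0 bp in WT1, 6629 bp in WT2, 6688 bp in O1 and 629 to 2924 bp in the others.

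Pancreatic transcription factors are of interest because the tissue's lineages use them. Of 26 such genes, 11 had a member, 7 of them in at least 2 mice without WT2 and O1. Those in the most mice were Isl1, Neurod1 and Rfx6. At Isl1, a LIM homeobox factor of islet cells, the overlap was in 11 mice with 684 to 2370 bp and absent in WT1. At Neurod1, a helix-loop-helix factor of endocrine cells, it was in 11 mice with 501 to 768 bp and absent in WT2. At Rfx6, which acts in islet formation, it was in 10 mice with 501 to 1086 bp, and absent in WT2 and WT3. Sox17, of endoderm, was in 9 mice and Pax6, of endocrine cells, in 8. Pdx1, Prox1 and Gata4 had a member in 2 mice, which were WT2 and O1 at each gene. Nkx6-1 had one in 3 mice and Mnx1 in 4, and Pdx1, Nkx6-1 and Mnx1 also act in endocrine cells.

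The marker genes of the tissue's cell types differed in their marks. All 10 acinar markers, among them the enzymes Cpa1 and Cel and the factors Ptf1a and Bhlha15 (the gene of Mist1), had a K4me3 peak within 3 kb of a start in 12 of 12 mice, and none had a member within 3 kb. The labelled tissue thus carried K4me3 at its main cell type. Of 6 islet markers, 5 had K4me3 in no mouse, and none had a member within 3 kb. K27me3 differed among them, and was called in 11 mice at Sst, 6 at Ins1, 3 at Gcg, 1 each at Ppy and Chga and 0 at Ins2. Beyond that window, the member at chr16:23897788-23899108, in 4 mice, had Sst as its nearest coding gene, and the one at chr2:19429610-19432364, in 2 mice, had Ptf1a. No immune marker had a member (0 of 7), and at the 3.60% of all coding genes, marker lists this short would mostly hold none. Of 6 endothelial and stromal markers, Kdr, the receptor of vascular growth factor, had one in 7 mice with 777 to 1438 bp, and the collagen gene Col1a1 had one in WT2 and O1. The part of cell types other than acinar cells in the members was not tested.

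Cell cycle inhibitors were another group with members. Of 7 cyclin-dependent kinase inhibitors, Cdkn2a and Cdkn2b had one, at neighbouring regions of chromosome 4. At Cdkn2a, which encodes the tumor suppressors p16 and p19 and is a classical Polycomb target, the shared length was 266, 1712 and 520 bp in control, 453, 1539 and 1342 bp in Ezh2ΔSET, and 1470, 0, 1210, 779, 1367 and 0 bp in the other 6 mice. At Cdkn2b, which encodes p15, it was 0, 1673 and 543 bp, 1135, 1360 and 0 bp, and 1100, 0, 673, 1407, 638 and 0 bp in the same order. Both overlaps were absent in O2 and O6. At Cdkn2a both marks were called in 12 of 12 mice, so in O2 and O6 they shared under 200 bp. At neither gene were control and Ezh2ΔSET mice separated. Of 8 genes of epithelial to mesenchymal transition, Zeb2 had a member in 8 mice and Snai2 in 6, both repressors of epithelial genes, and Cdh2, N-cadherin, in 2.

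Members were also found at signalling and channel genes, beside the 3.60% of all coding genes, or 5.44% of those with a K4me3 region. They lay at 3 of 19 Wnt ligands (Wnt9b in 4 mice, Wnt2 and Wnt5a in 3), 4 of 20 Fgf ligands (Fgf5 in 8 mice), 1 of 20 Bmp and Gdf ligands (Gdf6 in 7 mice) and 1 of 14 Notch pathway genes (Hey2 in 3 mice). No Hedgehog pathway gene had one (0 of 8). The Bmp and Gdf (5%) and Notch (7.14%) shares were near that of all genes. Counts of 0 or 1 gene in lists this short are not read as a difference. Of 91 potassium channel genes, 14 had a member, and 7 had one in at least 2 mice without WT2 and O1, with Kcnh8 in 10 mice at 376 to 2004 bp and Kcnc2 in 8. None was found at 76 cytosolic ribosomal protein genes, 38 proteasome subunits or 21 autosomal PRC2 and PRC1 subunits, although 97.4%, 97.4% and 100% of these had a K4me3 region. Lists of this size would hold few members at the share of all genes.

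Few members were in all 3 Ezh2ΔSET mice and in no control mouse, or the reverse. Of 1119 members, 7 were in all Ezh2ΔSET and no control mice, beside 0.0243% of the 28847 K4me3 regions in at least 2 mice, and 2 were in all control and no Ezh2ΔSET mice (0.00693%). The percentages count K4me3 regions with such a pattern, which are merged over other stretches than the members. Overlaps chose the members and the K4me3 regions counted, so nothing is read from these counts.

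Among members in Ezh2ΔSET and not control mice, the region at Adgrv1, an adhesion receptor of hair cells, shared 641, 629 and 632 bp in Ezh2ΔSET and 0 bp in control mice. WT1 and WT3 had K4me3 alone there and WT2 K27me3 alone. The region 96.5 kb from Tmco5 shared 651, 671 and 882 bp in Ezh2ΔSET mice and 0 bp in control mice, all 3 of which had K4me3 alone. The missing mark thus differed between these regions and, at Adgrv1, between control mice. A region 551 kb from Dsel shared 777, 501 and 501 bp in Ezh2ΔSET mice, and one 14.9 kb from Bsx, a homeobox factor of the hypothalamus, 501, 638 and 501 bp. Lengths of 501 bp equal the narrowest K4me3 peak in any list, so the overlaps of that length could rest on the smallest K4me3 peaks that were called.

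At the members in control and not Ezh2ΔSET mice, all 3 Ezh2ΔSET mice kept K27me3 and had no K4me3 peak. At Lhx2, a LIM homeobox factor, a region 312 bp from a start shared 337, 794 and 775 bp in control mice, and 8 mice in all had K27me3 alone. At the region 5.92 kb from BC051142, the shared length was 501, 667 and 501 bp in control mice, and the 5 mice without the overlap had K27me3 alone. A similar order was found at Hoxc9, singled out after its values were seen, with 775, 957 and 798 bp in control and 0, 501 and 0 bp in Ezh2ΔSET mice. K27me3 was called in all 12 mice at Lhx2, BC051142 and Hoxc9.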

How the data were processed

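The authors sequenced K27me3 and K4me3 ChIP libraries and input of 12 mice, checked reads with FastQC, aligned them to mm10 with Bowtie2 and called peaks per mouse with HOMER in histone mode (submitters' processing notes and methods; versions not given in the sources used here). The deposited lists hold coordinates alone. The score column was 1 for every peak, so depth is unknown. The input libraries and RNA-Seq were not used here. Peaks that overlapped within one list were merged, and members were built as described. Gene starts came from GENCODE vM21 and bases from GRCm38.p6. Members and gene lists were chosen with earlier results of these data known. Named were the 20 members in the most mice (ties by median shared length), list genes with a member within 3 kb in the most mice, and up to 5 members by median shared length in all 3 mice of control or Ezh2ΔSET and none of the other. Counts per mouse were compared by exact permutation tests and paired measures by exact sign-flip tests, with Benjamini-Hochberg adjustment over 2 comparisons. Comparisons of the other 2 genotypes and 2 of the 20 members are not reported here. Code was tested on simulated data. Copies of members were searched with BLAST 2.17.0, figures were drawn with matplotlib 3.10.9, and the Wilson interval came from scipy 1.17.1. Tests ran in purpose-written code with numpy 2.4.6 under Python 3.11.15, with pandas 2.3.3 for tables. Replicate numbers did not pair the mice by their labels.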

Additional observations from a re-analysis of the deposited data

Results flagged for a closer look

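Chromosome X lay outside the rule, and 4 mice there had more overlap regions than the control mice, which had 56, 244 and 194. EZ1 had 266, EZ3 had 327, O4 had 322 and O5 had 419. O6 had 230, within the range of the controls, and EZ2, O1, O2 and O3 had 0. The mice with 0 were those with 10 to 33 K27me3 peaks on chromosome X.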

How the results depend on the processing

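The direction of the comparison of Ezh2ΔSET with control depended on how WT2 was treated. With medians in place of means, the difference was 43 overlap regions and 0.148 points in the share of K4me3 peaks. With WT2 and O1 both left out, an alternative chosen after seeing the data, it was 137 regions and 0.519 points. With each mouse of these groups left out in turn, it ran from -799 to 137 regions and from -5.13 to 0.519 points. With the replicate block, it stayed at -451 regions and -3.09 points, with a paired exact sign-flip p of 1 for each, and a p under 0.25 was not possible. Control and Ezh2ΔSET mice of the same replicate number deviated from their group means in the same direction for numbers 1 and 2 and in opposite directions for number 3, in both measures. The number of members was 419 with 1000 bp shared, 674 with at least 3 mice, 508 with K4me3 peaks of at least 1 kb (the minimum of 5 kb removes no K27me3 peak), 687 without WT2 and O1, and 799 to 1109 with 1 mouse left out. The share of members at a gene start was 63.4% within 1 kb, 78.3% within 10 kb, 81.6% with all annotated genes, 65.6% without WT2 and O1 and 66.7% to 69.8% with 1 mouse left out. The gene start difference was 3.66 points with the 1 kb window (exact sign-flip permutation p = 0.00732, n = 12), 16.7 points with 1000 bp shared (exact sign-flip permutation p = 0.000488, n = 12) and 8.68 to 9.66 points with 1 mouse left out. The CpG difference was 0.212 to 0.223 with 1 mouse left out. Unknown depth limits all counts, since a library of other depth could gain or lose peaks of either mark.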
